A study of Homo sapiens with 8 samples.

Results

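The SSBP, LDB and LMO genes encode the cofactor proteins of LIM-domain transcription complexes. They were described here through the H3K27Ac enhancers of 4 medulloblastoma (MB) cell lines. The members were 9 genes of 27432 analysed, 3 SSBP genes (*SSBP2*, *SSBP3* and *SSBP4*), 2 LDB genes (*LDB1* and *LDB2*) and 4 LMO genes (*LMO1*, *LMO2*, *LMO3* and *LMO4*). An enhancer was assigned to a gene when it overlapped the gene body or lay within 50 kb of the start site, on GRCh38. By this rule the members held 28 of the 26072 enhancers of MB002, 25 of the 15286 of HD-MB03, 25 of the 26317 of D425 and 24 of the 20875 of UW228.

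H3K27Ac, a histone mark of active enhancers and promoters, had been mapped by ChIP-seq in 3 lines of group 3 MB (G3-MB), MB002, HD-MB03 and D425, and in UW228, which the labels assign to the SHH subtype. The labels name no treatment or modification of the cells, and each of the 4 was 1 line with 1 H3K27Ac library and 1 input library. There were therefore no replicates, no test was made, and every difference below is between single libraries. MB002 and HD-MB03 had been grown in Tumor Stem Media, and D425 and UW228 in DMEM with serum. The UW228 values were also made later than the others, so that processing date and subtype cannot be told apart.

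Signal below is the H3K27Ac signal of a stitched enhancer minus its input signal, set to 0 where negative. The deposited signal is a read density per base pair, scaled to the library and then multiplied by enhancer length, so a long enhancer has more signal at the same density. Rank 1 is the enhancer with the highest signal in its line. The deposited super-enhancer (SE) calls covered the top 363 enhancers in MB002, 302 in HD-MB03, 431 in D425 and 753 in UW228, and the rest are typical enhancers (TEs). Relative input density is the input per base pair over the median enhancer of the line, a value that moves with DNA copy number and with mappability. Library depth cannot be read from the values. Of the genes that mark the subtypes, *OTX2* was SE-associated in all 3 G3-MB lines and had no enhancer in UW228. *CRX* was SE-associated in MB002 and D425, reached rank 1425 in HD-MB03 and had no enhancer in UW228. The SHH pathway genes *GLI1*, *GLI2* and *PTCH1* had 1 TE each in UW228, at ranks between 8326 and 13373, and *ATOH1* had no enhancer in any line. Thus UW228 carried no SE at these genes, whereas *GLI1* and *PTCH1* were SE-associated in HD-MB03. These calls follow the 50 kb rule, by which an enhancer can also be assigned to neighbouring genes.

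In the cell, LDB proteins form dimers and bind the LIM domains of LMO proteins and of LIM homeodomain factors. The LMO proteins carry LIM domains but bind no DNA themselves, and bridge LDB proteins to GATA and basic helix-loop-helix (bHLH) factors. SSBP proteins bind LDB proteins and protect them from ubiquitin-mediated degradation. The same SSBP and LDB module joins BCL9 and Pygopus in the Wnt enhanceosome, and these complexes are known for bringing distant enhancers to promoters and for roles in neural and blood development.

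Of the 9 members, 2 were SE-associated in MB002 (*SSBP3* and *LDB1*), against 3.19% of all genes. In D425 and in HD-MB03 it was 1 member, *SSBP3*, against 4.18% and 3.03% of all genes. In UW228 it was again 1 member, *SSBP4*, against 5.25%. At least 1 enhancer was assigned to 9 members in MB002, D425 and UW228 and to 8 in HD-MB03, against 67.4%, 69.1%, 59.0% and 54.2% of all genes, respectively. The member without one was *LMO3*. *SSBP3* and *LMO1* had a higher summed signal in each of the 3 G3-MB lines than in UW228, as did 23.4% of the genes with an enhancer in any line. *SSBP2*, *SSBP4*, *LMO3* and *LMO4* had a lower summed signal in each G3-MB line than in UW228, as did 29.9% of those genes. These 2 and 4 of 9 members depended on the scale, and with so few genes neither count is a result about the members. With the mean signal per base pair in place of the sum, 0 members were higher and 0 were lower in all 3 lines. With the gene body only, *SSBP4* turned round and was higher in all 3 G3-MB lines than in UW228, and *LMO1* was no longer higher in all 3. The median enhancer signal was 890 in MB002, 846 in HD-MB03, 717 in D425 and 1690 in UW228, so that division by it lowers UW228 against the other lines. With the signal divided by this median, *SSBP3* and *LMO1* were higher in all 3 lines, as were 28.6% of the genes, and *LMO3* and *LMO4* alone were lower, as were 21.1%. Division by the sum of the line gave the same members, with 26.1% of the genes higher and 26.0% lower.

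**Figure D1:**
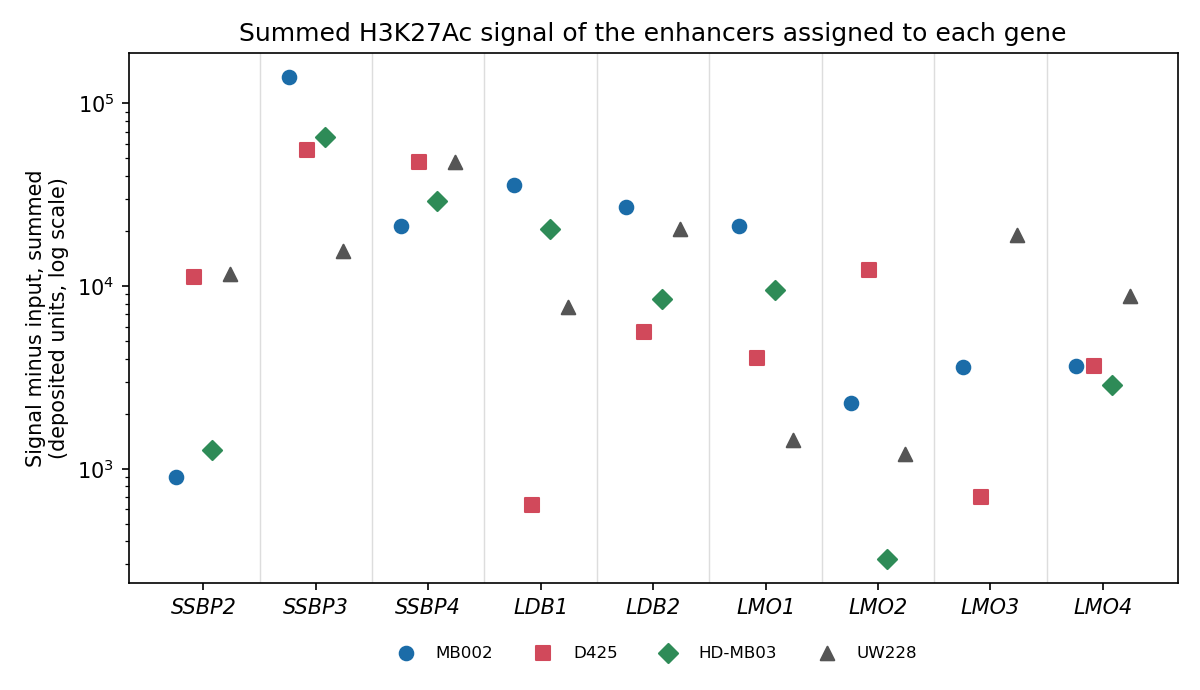
Summed H3K27Ac signal minus input (deposited units, log axis) of the enhancers of each gene, with 1 point per line and no error bars because each line had 1 library. *SSBP3* reached 139280 in MB002 and 15481 in UW228, and *LMO3* has no point for HD-MB03, where it had no enhancer.

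**Figure D2:**
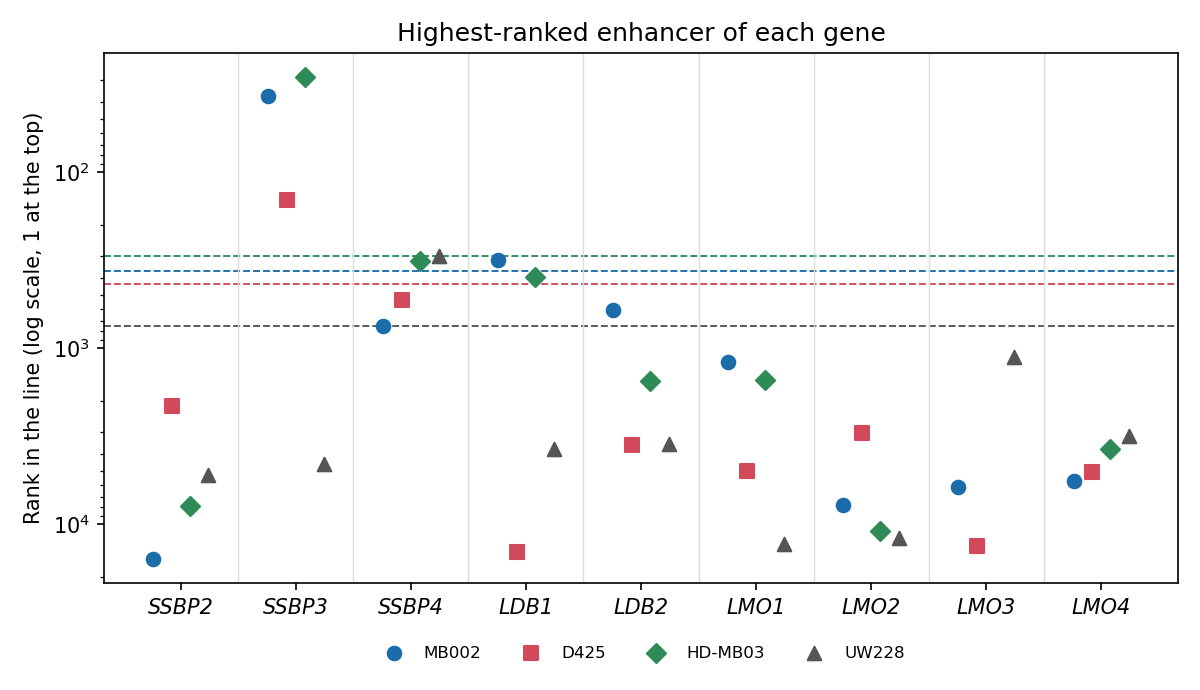
Rank of the highest-ranked enhancer of each gene (log axis, rank 1 at the top), with 1 point per line. Each dashed line is the lowest rank called as SE in the line of the same colour, from 302 in HD-MB03 to 753 in UW228, and the 5 points above their own line are *SSBP3* in 3 lines, *LDB1* in MB002 and *SSBP4* in UW228.

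*SSBP3* (GRCh38 chr1:54225432-54413490, minus strand) had the largest summed signal of the 9 members in MB002, D425 and HD-MB03. Its summed signal was 139280 in MB002, 65280 in HD-MB03, 55302 in D425 and 15481 in UW228. MB002 was 2.13 times above HD-MB03, D425 and HD-MB03 were close, and the lowest G3-MB line was 3.57 times above UW228, or 8.42 times over the line median and 4.70 times over the line sum. *SSBP3* was 1 of the 73 genes (0.266% of all) that were SE-associated in every G3-MB line and not in UW228.

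The signal of *SSBP3* lay mostly in a single block inside the gene. In MB002 the block was chr1:54272695-54363466, 90.8 kb long with a signal of 92024 at rank 37. In D425 it was chr1:54273227-54363286, 90.1 kb long with a signal of 45318 at rank 144. In HD-MB03 it was chr1:54245803-54363385, 118 kb long with a signal of 60990 at rank 29. The 3 blocks ended at nearly the same place, 50.02, 50.2 and 50.1 kb downstream of the start site, and all of the D425 block, 90.06 kb, lay within the other two. In MB002 and D425 the block ran from intron 4 into intron 5 of the 18-exon canonical transcript and overlapped exon 5 alone. In HD-MB03 it went on over exons 5 to 9 and reached the place where MB002 and D425 had a separate TE, which in MB002 lay 163 to 168 kb from the start site.

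The block was stitched from a similar number of peaks, 25 in MB002, 25 in HD-MB03 and 26 in D425. These peaks filled 46.8% of the block in MB002, 35.2% in HD-MB03 and 25.7% in D425. The density over the whole block was 1.01 signal units per base pair in MB002, 0.519 in HD-MB03 and 0.503 in D425, so that MB002 had the higher density over nearly the same bases as D425.

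UW228 had 5 TEs at *SSBP3* with 14.7 kb in all, against 130 kb in MB002, 124 kb in D425 and 129 kb in HD-MB03. The highest was at chr1:54249828-54255766, with a signal of 6110 at rank 4522. The next was at chr1:54332288-54336586, with 5645 at rank 4877, and lay inside the block of all 3 G3-MB lines. Of the bases of the UW228 enhancers, 56.6% were also in an enhancer of MB002, 48.1% in one of D425 and 97.6% in one of HD-MB03. The density over all *SSBP3* enhancers was 1.05 per base pair in UW228, 1.075 in MB002, 0.506 in HD-MB03 and 0.447 in D425. UW228 therefore covered less length than the G3-MB lines, and its density was near that of MB002 and above those of HD-MB03 and D425. These densities are over stitched bases, which include gaps between peaks. Peaks filled 59.8% of the highest UW228 TE and 64.7% of the next, against 25.7% to 46.8% of the G3-MB blocks. Densities over stitched bases are thus not densities of the peaks.

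**Figure D3:**
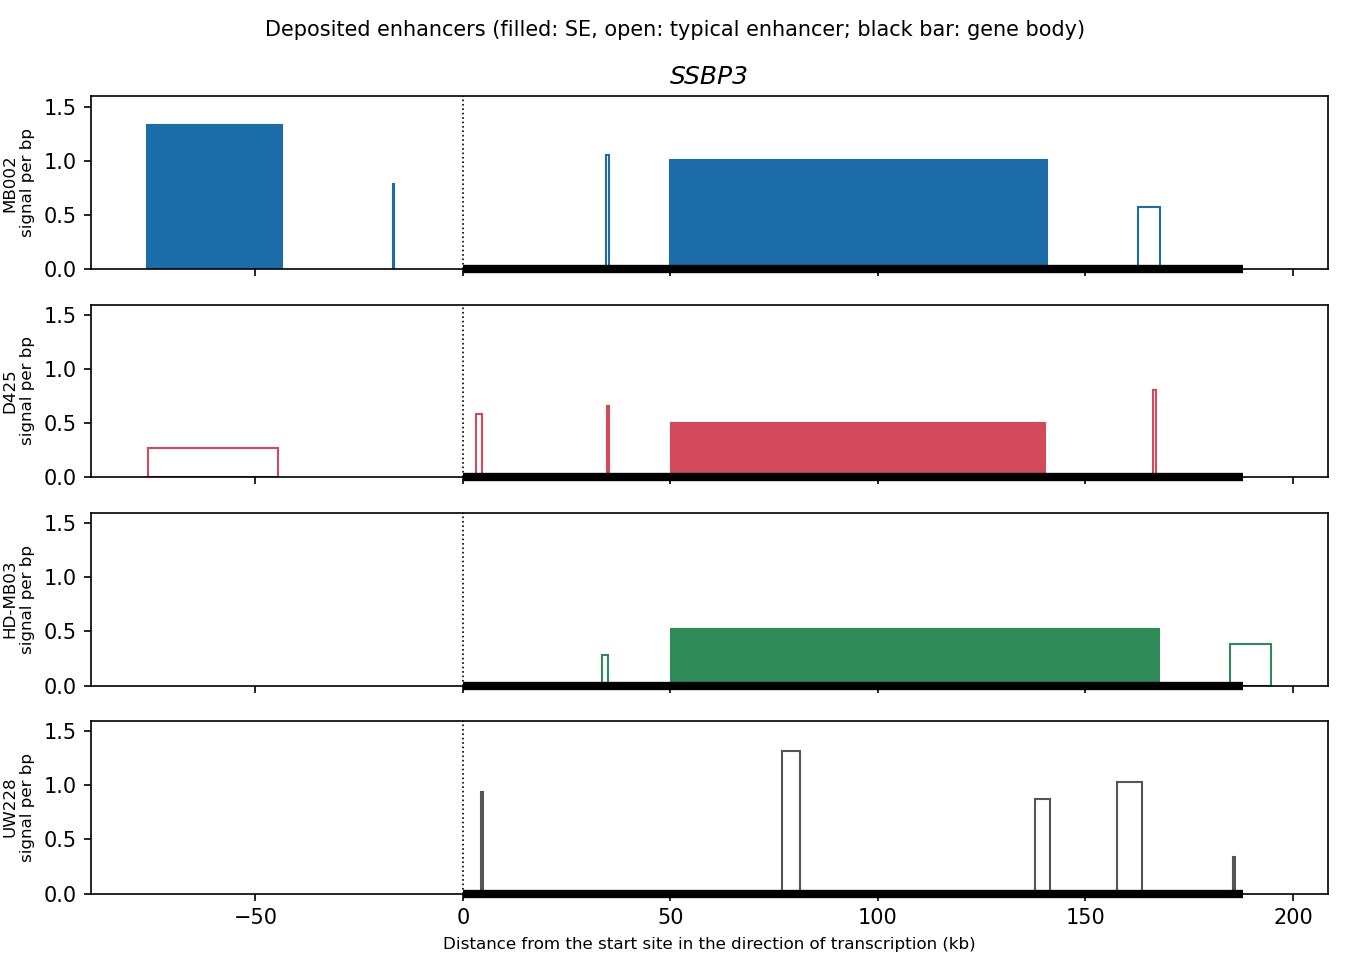
Deposited enhancers of *SSBP3* in the 4 lines, by distance from the start site in the direction of transcription (kb) and by signal minus input per base pair, where filled boxes are SEs, open boxes are TEs and the black bar is the gene body. The filled block from about 50 kb is shared by MB002, D425 and HD-MB03, and UW228 has short TEs in that span, 1 of them inside the block of all 3 lines.

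Intervals of *SSBP3* that lay in an enhancer of all 4 lines numbered 2, with lengths of 2.48 and 4.30 kb. The middle 300 bases of the shorter interval are shown because it is a part of the intronic block that was marked in every line (GRCh38, plus strand). They are chr1:54274317-54274616 and overlap no annotated exon. Capitals mark matches on either strand, and matches may overlap. The OTX core, which OTX factors and their relatives bind, was searched as TAATCC. The LIM core of LIM homeodomain factors was searched as TAATTA. The E-box of bHLH factors was searched as CANNTG and the GATA core as GATAA.
SSBP3 interval 54274317: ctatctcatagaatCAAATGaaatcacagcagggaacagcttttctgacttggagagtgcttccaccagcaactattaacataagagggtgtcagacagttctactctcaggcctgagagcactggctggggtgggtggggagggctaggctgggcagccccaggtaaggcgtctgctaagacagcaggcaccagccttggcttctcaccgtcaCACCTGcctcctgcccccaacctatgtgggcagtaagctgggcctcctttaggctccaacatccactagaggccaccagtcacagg
They held 2 E-boxes and no other match. Among the middle 300 bases of all MB002 enhancers of at least that length, 23.8% held an OTX core, 9.56% a LIM core, 80.3% an E-box and 38.8% a GATA core. Over the whole MB002 block there were 0.683 OTX cores per kb, against 0.878 over all MB002 enhancers, and 0.154 LIM cores per kb, against 0.391. E-boxes came to 6.04 per kb in the block and 5.53 over all enhancers. These matches are descriptions of letters and not binding sites.

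Upstream of *SSBP3* a further enhancer was found in MB002 and D425. In MB002 it was an SE, chr1:54457077-54489530, 43.6 to 76.0 kb upstream, with a signal of 43156 at rank 213. In D425 the counterpart had nearly the same ends but a signal of 8458 at rank 2230, and was a TE. The gene with the closest start site to the MB002 SE was *LINC02784*, a long non-coding RNA gene. In HD-MB03 the nearest enhancer upstream of *SSBP3* lay 51.7 kb away, just outside the rule, with a signal of 6494 at rank 1914, and in UW228 it lay 75.1 kb away. A very short TE of 284 bp, 16.9 kb upstream, was found in MB002 alone.

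Input at *SSBP3* was also highest in MB002. Relative input density of the block was 1.70 in MB002, 1.1 in HD-MB03 and 1.26 in D425. In MB002 the median over the 23 enhancers within 500 kb of the block was 1.57, so that the higher input was not confined to the block. This median was 0.986 in D425, 1.14 in HD-MB03 and 0.793 to 0.95 around the UW228 TEs in the same span. With each enhancer divided by this local median, the summed signal was 89162 in MB002, 57005 in HD-MB03, 56269 in D425 and 17511 in UW228. The order of the lines was kept and MB002 came nearer to the others. With each enhancer divided by its own input density, *SSBP3* was still higher in all 3 G3-MB lines than in UW228. Its best rank was then 88 in MB002, 27 in HD-MB03, 197 in D425 and 1648 in UW228, against 37, 29, 144 and 4522 before. The relative input density of the highest UW228 TE was 0.383. The SE call of *SSBP3* was kept in all 3 G3-MB lines under each change of signal or cutoff except the ranking by mean signal per base pair, where the best ranks were 1828 in MB002, 7388 in HD-MB03 and 5741 in D425. It was also lost when each enhancer went to the gene with the start site closest to its centre, since the block then went to *SSBP3-AS1* (chr1:54236443-54239063), a long non-coding RNA gene on the other strand inside the *SSBP3* gene body. UW228 was then the highest line, with 5976 against 423 to 1022.

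The 3 genes with the ranks most like those of *SSBP3* (37, 144, 29 and 4522 in MB002, D425, HD-MB03 and UW228) were *TSPAN9*, *TSPAN9-IT1* and *GSE1*. Likeness was the summed difference of log10 best rank over the 4 lines, among 8924 genes with an enhancer in each line and none shared with *SSBP3*. *TSPAN9*, which encodes a tetraspanin, and *TSPAN9-IT1*, a transcript within it, both had ranks of 54, 141, 52 and 1335, a summed difference of 0.957. *GSE1*, which encodes a coiled-coil protein, had ranks of 20, 41, 20 and 4573, a summed difference of 0.979.

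*SSBP4* (chr19:18402725-18434562, plus strand) was marked in every line, and 1.22 kb, 12.7 to 13.9 kb downstream of the outermost RefSeq start site and upstream of that in GENCODE 44, were common to all 4. Of the bases of the UW228 enhancers, 88.5% were in an enhancer of D425, 15.9% in one of HD-MB03 and 3.17% in one of MB002. The summed signal came to 21376 in MB002, 29190 in HD-MB03, 47701 in D425 and 47729 in UW228. UW228 and D425 were nearly equal, and MB002 and HD-MB03 were lower. Over the line median the values were 24.01 in MB002, 34.5 in HD-MB03, 66.6 in D425 and 28.2 in UW228, so that D425 was then 2.36 times above UW228. Divided by the median input within 500 kb, the order went the other way. The summed signal was then 21081 in MB002, 31917 in HD-MB03, 44001 in D425 and 73610 in UW228. The best ranks were 752 in MB002, 321 in HD-MB03, 532 in D425 and 300 in UW228, all within the top 2.88% of the enhancers of the line.

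The SE of UW228 was chr19:18357995-18383427, 19.3 to 44.7 kb upstream of *SSBP4*, with a signal of 40890 and a density of 1.61 per base pair. The gene with the closest start site was *GDF15*, which encodes a stress-induced cytokine, and no start site lay inside the SE. D425 had a TE over almost the same bases, with 23316 at rank 532, and HD-MB03 had several short TEs there with up to 2117. In HD-MB03 the highest enhancer was instead chr19:18415388-18420669, a single peak over exon 1 of the canonical transcript with a density of 4.26 per base pair, the highest of any member enhancer. Its signal of 22500 at rank 321 was just below the lowest SE of that line, at 23019. In MB002 the highest was a TE of 45.5 kb that covered all 18 exons and the start site of the neighbour *ISYNA1*, with 21215 at rank 752.

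The start site of *SSBP4* differs by 16139 bp between RefSeq and GENCODE 44, and the UW228 SE was still within 50 kb by the latter. It was assigned through the start site window alone, so that with the gene body only the best rank of *SSBP4* in UW228 was 4081. The summed signal was then 21215 in MB002, 23983 in HD-MB03, 24385 in D425 and 6839 in UW228, so that the line with the highest value became the lowest. In the ranking by mean signal per base pair the SE call was also lost, with a rank of 993. It was lost again when each enhancer went to the gene with the closest start site. The summed signal was then 6839 in UW228, 6991 in D425 and 22593 in HD-MB03, and MB002 had no enhancer of *SSBP4*. With a window of 100 kb, SEs of rank 321 in D425 and 92 in HD-MB03 also fell to *SSBP4*. The summed signal was then 42087 in MB002, 72422 in HD-MB03, 78796 in D425 and 65205 in UW228, with HD-MB03 and D425 above UW228.

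*SSBP2* (chr5:81412804-81751807, minus strand), the paralog with the longest of the 3 SSBP gene bodies, had little signal in MB002 and HD-MB03 within its 50 kb window. The summed signal was 906 in MB002, 1259 in HD-MB03, 11167 in D425 and 11650 in UW228. D425 and UW228 were nearly equal and well above the other two, although over the line median D425 was 2.26 times above UW228, at 15.6 against 6.89. In MB002 the best rank was 15719, in the lower part of its 26072 enhancers, although 18.9 kb were assigned, and the density was 0.0478 per base pair. The highest TEs of D425 and UW228 lay at the 3' end of the gene, at chr5:81407545-81427002 (8795, rank 2134) and chr5:81419509-81429434 (5199, rank 5238). UW228 had a further TE of 20.5 kb that began 16.8 kb upstream, with 5030. Shared bases were few, at most 7.73 kb between D425 and UW228. With the gene body only, D425 had 11046 and UW228 6146. The low values of MB002 and HD-MB03 depended on the window. With a start site window of 100 kb the summed signal was 11324 in MB002, 11153 in HD-MB03, 13144 in D425 and 21392 in UW228. When each enhancer went to the gene with the closest start site, D425 was the lowest line, with 3111 against 11324 in MB002, 10186 in HD-MB03 and 16193 in UW228.

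*LDB1* (chr10:102102088-102121442, minus strand) encodes the widely expressed LIM domain-binding protein. The enhancers summed to a signal of 35760 in MB002, 20621 in HD-MB03, 637 in D425 and 7648 in UW228. The range among the G3-MB lines alone was 56.1 times, so *LDB1* did not separate them from UW228. MB002 and HD-MB03, the lines grown in Tumor Stem Media, had the higher values, and medium and line cannot be told apart here. MB002 had an SE, chr10:102116967-102136981, with 35057 at rank 318 among 363 SEs. It spanned the start sites of *LDB1* and of *PPRC1*, a coactivator gene on the other strand, so both genes were assigned to it. HD-MB03 had a TE at chr10:102105028-102123099, with 20621 at rank 396, which covered all 11 exons of *LDB1* and the same pair of start sites. UW228 had 7523 in a TE of 4.54 kb in intron 1, and D425 had 576 in 789 bp of the same intron. Those 789 bp, 3.13 to 3.92 kb downstream of the start site, were in an enhancer of all 4 lines. The SE call in MB002 was lost without input subtraction, where the rank was 391, and in the ranking by mean signal per base pair, where it was 967. When each enhancer went to the gene with the closest start site, MB002 alone had an enhancer of *LDB1*.

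An internal RefSeq start site of *LDB1*, at chr10:102115002 on the minus strand and downstream of the canonical one at chr10:102120368, lay inside the HD-MB03 TE and outside the enhancers of the other lines, although the UW228 TE began within the bases just before it. The 250 bases before it, chr10:102115003-102115252, and the middle 300 bases of the interval marked in all 4 lines, chr10:102117768-102118067 on the plus strand, are shown because they set a stretch that HD-MB03 covered whole beside one marked in every line. Capitals are as above.
LDB1 internal promoter: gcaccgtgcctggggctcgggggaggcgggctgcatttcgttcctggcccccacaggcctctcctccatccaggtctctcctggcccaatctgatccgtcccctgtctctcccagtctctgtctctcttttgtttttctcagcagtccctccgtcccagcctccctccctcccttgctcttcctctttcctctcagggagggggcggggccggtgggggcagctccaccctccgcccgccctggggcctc
LDB1 shared interval: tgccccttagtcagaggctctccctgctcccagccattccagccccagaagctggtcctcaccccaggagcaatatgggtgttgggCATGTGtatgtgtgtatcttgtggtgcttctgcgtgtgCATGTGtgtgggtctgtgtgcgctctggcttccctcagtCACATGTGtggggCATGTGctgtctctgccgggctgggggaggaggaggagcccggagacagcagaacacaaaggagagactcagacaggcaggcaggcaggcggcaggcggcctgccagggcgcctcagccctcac
The bases before the internal start site, with 67.2% G and C, held none of the 4 motifs. Of all RefSeq promoters in the table used, at this length, 61.8% held an E-box, 20.4% a GATA core, 5.62% an OTX core and 4.35% a LIM core. The shared interval held 5 E-boxes, all in a stretch rich in TG repeats, and no other match.

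**Figure D4:**
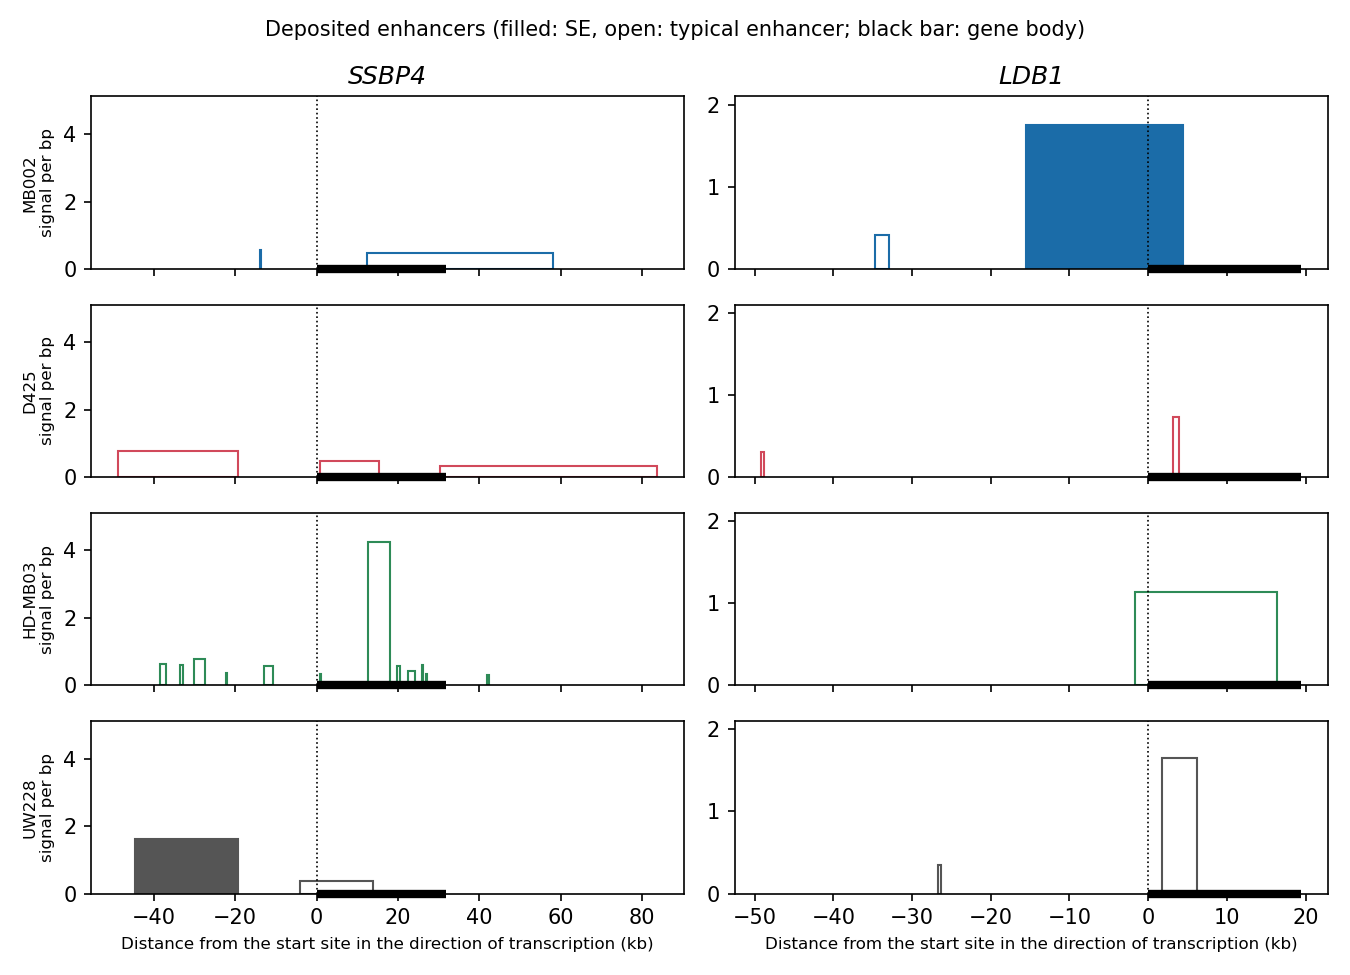
Deposited enhancers of *SSBP4* and *LDB1* in the 4 lines, by distance from the start site in the direction of transcription (kb) and by signal minus input per base pair, where filled boxes are SEs, open boxes are TEs and the black bar is the gene body. The UW228 SE of *SSBP4* lies wholly upstream of the gene, and the MB002 SE of *LDB1* spans its start site.

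*LDB2* (chr4:16501541-16898645, minus strand), the paralog of *LDB1*, has the longest gene body of the members at 397 kb, and a long gene collects more enhancers under this rule. Its summed signal was 27146 in MB002, 8447 in HD-MB03, 5584 in D425 and 20423 in UW228. MB002 and UW228 were the higher lines. No enhancer of *LDB2* was an SE. The G3-MB lines shared a TE deep inside the gene, at 289 to 307 kb from the start site. Its signal was 23991 at rank 609 in MB002, 5494 at rank 3555 in D425 and 8179 at rank 1535 in HD-MB03. UW228 had 1352 in 1.58 kb there, and its signal lay near the start site instead, with 7948 in a TE that ended 0.08 kb from it and 8002 in a TE 22.5 to 40.2 kb downstream. Of the bases of the UW228 enhancers, 4.90% were in an enhancer of MB002 and 4.22% in one of D425.

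The LMO genes had no SE in any line. *LMO1* (chr11:8224309-8268787, minus strand), an oncogene of T cell leukaemia and a susceptibility gene of neuroblastoma, was the LMO gene that was higher in all 3 G3-MB lines. Its summed signal was 21229 in MB002, 9527 in HD-MB03, 4017 in D425 and 1442 in UW228. The lowest G3-MB line was 2.79 times above UW228, or 6.57 times over the line median and 3.66 times over the line sum. With a window of 100 kb the G3-MB lines had 40099 in MB002, 19539 in HD-MB03 and 11852 in D425, and UW228 was unchanged. A TE upstream of the gene carried most of it, with 15509 at rank 1193 in MB002, 3674 at rank 5004 in D425 and 8274 at rank 1515 in HD-MB03. The 3 TEs had 7.68 kb in common, 13.7 to 21.4 kb upstream, where UW228 had no enhancer. The relative input density of the D425 TE was 1.99, with a median of 1.65 over the 11 enhancers within 500 kb, while that of the highest UW228 TE was 0.251. Divided by the local median, the summed signal was 2437 in D425 and 2111 in UW228. With each enhancer divided by its own input density, *LMO1* was no longer higher in all 3 lines. Nor was it with the gene body only, where the summed signal was 5720 in MB002, 1253 in HD-MB03, 343 in D425 and 1442 in UW228.

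The middle 300 bases of the upstream *LMO1* interval, chr11:8286201-8286500 on the plus strand, are shown as the stretch common to the G3-MB lines alone.
LMO1 upstream interval: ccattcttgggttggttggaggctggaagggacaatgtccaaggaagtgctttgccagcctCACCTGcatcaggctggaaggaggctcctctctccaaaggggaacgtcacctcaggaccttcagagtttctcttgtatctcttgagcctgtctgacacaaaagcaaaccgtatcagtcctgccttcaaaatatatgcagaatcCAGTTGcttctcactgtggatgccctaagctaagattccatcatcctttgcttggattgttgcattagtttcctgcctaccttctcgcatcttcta
It held 2 E-boxes and none of the other motifs, and overlapped no annotated exon.

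*LMO2* (chr11:33858576-33892076, minus strand), a regulator of blood formation and an oncogene of T cell leukaemia, had no enhancer inside its gene body in any line. Its summed signal was 2282 in MB002, 321 in HD-MB03, 12268 in D425 and 1200 in UW228, so that D425 was 5.38 times above the next line. With a window of 25 kb D425 alone had an enhancer of *LMO2*. In each line an enhancer lay about 38 to 40 kb upstream, and 370 bp of it were common to all 4. There the signal was 2282 in MB002, 321 in HD-MB03 and 1200 in UW228, and in D425 it was part of a TE of 31.0 kb with 5868. D425 had a further TE 2.96 to 16.1 kb upstream with 6399 at rank 3053. The relative input densities of these D425 TEs were 1.69 and 1.27, against 0.762 to 0.988 in the other lines. The middle 300 bases of the shared interval, chr11:33930416-33930715 on the plus strand, are shown because it was marked in every line.
LMO2 upstream interval: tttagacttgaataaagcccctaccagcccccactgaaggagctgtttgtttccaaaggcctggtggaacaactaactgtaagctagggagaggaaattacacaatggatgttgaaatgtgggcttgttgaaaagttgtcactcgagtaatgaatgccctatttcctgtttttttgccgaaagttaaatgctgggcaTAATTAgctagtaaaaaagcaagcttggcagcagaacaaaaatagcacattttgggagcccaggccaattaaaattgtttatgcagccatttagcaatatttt
It held 1 LIM core, which 9.56% of the same windows in MB002 and 11.3% in UW228 held, and no other match.

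*LMO3* (chr12:16548372-16610174, minus strand), a neural member of the family, had a summed signal of 3593 in MB002, 699 in D425 and 19133 in UW228, and no enhancer in HD-MB03. UW228 was 5.33 times above MB002, or 2.81 times over the line median. Its single TE, chr12:16586523-16613075, was 26.6 kb long at rank 1124 and covered the start site of the gene and exons 1 and 2, whereas the enhancers of MB002 and D425 lay in introns 2 and 3. MB002 and D425 shared 558 bp, and the bases shared with UW228 were 376 in MB002 and 0 in D425. The UW228 TE contained each of the 5 RefSeq promoters listed for *LMO3*. The 250 bases before the outermost of these start sites, chr12:16608215-16608464 on the minus strand, are shown.
LMO3 promoter: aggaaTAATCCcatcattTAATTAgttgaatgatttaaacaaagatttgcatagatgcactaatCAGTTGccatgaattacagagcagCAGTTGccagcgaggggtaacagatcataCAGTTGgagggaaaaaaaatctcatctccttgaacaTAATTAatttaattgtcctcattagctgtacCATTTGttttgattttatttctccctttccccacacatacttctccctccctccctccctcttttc
It held 2 LIM cores, 1 OTX core and 4 E-boxes, with 37.6% G and C. The other 4 promoters of *LMO3* held 0 LIM cores, 0 OTX cores and 0 to 4 E-boxes.

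*LMO4* (chr1:87328880-87348923, plus strand), a broadly expressed member with roles in neural development, varied least among the G3-MB lines, with a summed signal of 3649 in MB002, 2864 in HD-MB03, 3660 in D425 and 8813 in UW228. The G3-MB lines were within 1.28 times of each other and UW228 was 2.41 times above the highest of them. Over the line median UW228 and D425 were nearly equal, at 5.21 and 5.11, and over the line sum UW228 was 1.43 times above the highest G3-MB line. Apart from a TE of 223 bp beyond the gene end in MB002, the enhancers lay over the first part of the gene, and 900 bp, 6.03 to 6.93 kb downstream of the start site, were common to all 4 lines. HD-MB03 had the shortest, 1.12 kb, with a density of 2.57 per base pair, while UW228 had 8.39 kb at 1.05, D425 had 5.45 kb at 0.672 and MB002 had 9.03 kb at 0.394. The order of UW228 above all G3-MB lines was not kept per base pair.

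**Figure D5:**
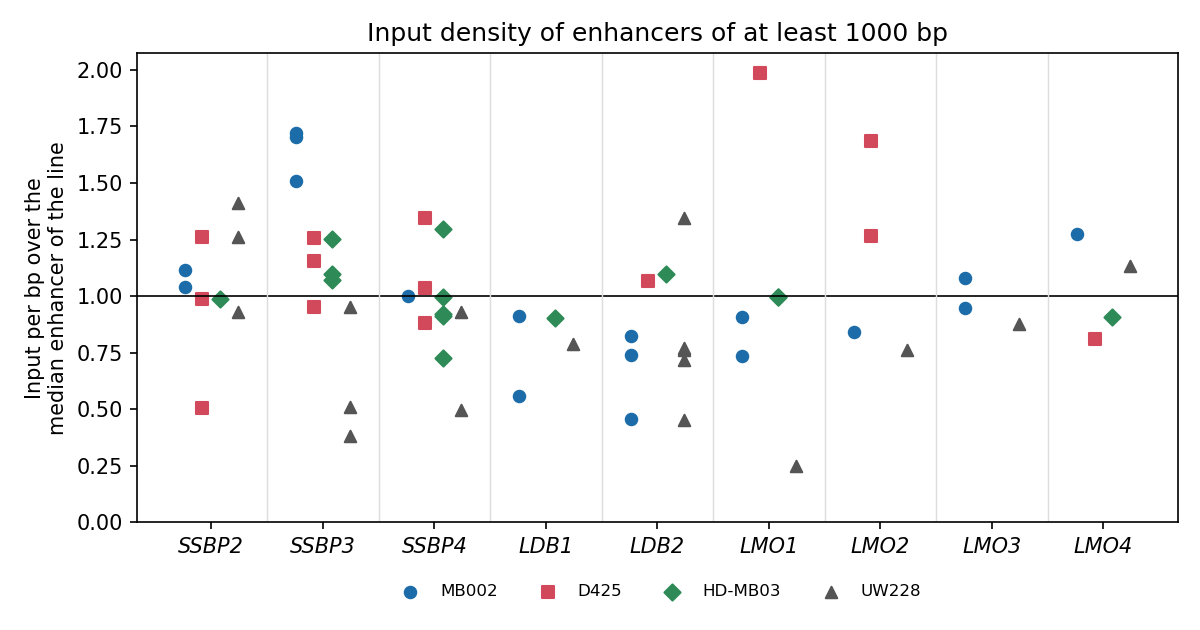
Relative input density (input per base pair over the median enhancer of the line, marked by the horizontal line at 1) of the member enhancers of at least 1000 bp, with 1 point per enhancer. The MB002 enhancers of *SSBP3* lie between 1.51 and 1.72 and the D425 enhancer of *LMO1* at 1.99.

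Over the member enhancers of at least 1000 bp, relative input density ran from 0.458 to 1.72 in MB002, from 0.507 to 1.99 in D425, from 0.728 to 1.30 in HD-MB03 and from 0.251 to 1.41 in UW228. These were all below the 99th percentile over all enhancers of that length in the same line, which was between 2.07 and 2.64. Of the 102 member enhancers in all, 64 lay inside a gene body, 28 upstream, 4 across the end of the gene, 2 downstream of it and 4 over the outermost RefSeq start site. Start sites inside a gene were not counted. The canonical one of *SSBP4*, for example, lay in the HD-MB03 enhancer at rank 321, counted here as inside the gene body.

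The proteins that the SSBP, LDB and LMO complexes work with were described from a list of 32 genes. SE-associated were 3 of them in MB002, 2 in HD-MB03, 3 in D425 and 4 in UW228, beside the shares of all genes given above. The positions and closest genes of these SEs are not reported here, so an SE assigned to a listed gene may lie nearer to another. Of the 12 LIM homeodomain genes, which encode the DNA-binding partners of LDB proteins, *LHX1* alone was SE-associated, in D425 at rank 353. It was just outside the SE call in MB002, at rank 418, and at 9025 in HD-MB03 and 7727 in UW228. An enhancer was assigned to 9 of the 12 in MB002 and D425, to 8 in HD-MB03 and to 4 in UW228, against 67.4%, 69.1%, 54.2% and 59.0% of all genes.

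Of the 8 bHLH genes, 3 had an SE in one line or more, as did 12.1% of all genes. *LYL1*, which encodes a partner of LMO proteins in blood, was SE-associated in D425 (rank 272), HD-MB03 (69) and UW228 (32), and had rank 545 in MB002. *NHLH1*, which encodes a neuronal bHLH factor, was SE-associated in MB002 at rank 289, had ranks of 1668 in D425 and 444 in HD-MB03, and had no enhancer in UW228. *TCF12*, which encodes an E protein, was SE-associated in UW228 at rank 571, with ranks between 1968 and 5670 in the G3-MB lines. None of the 6 GATA genes was SE-associated in any line. Of the 5 Wnt enhanceosome genes, *BCL9L* was SE-associated in MB002 (rank 260), D425 (357) and UW228 (462), and *PYGO2*, which encodes a Pygopus protein, in MB002 (248), HD-MB03 (98) and UW228 (661). *RLIM*, which encodes the ubiquitin ligase that targets LDB proteins, had no enhancer in the G3-MB lines and a TE in UW228.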

How the data were processed

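For each of MB002, HD-MB03, D425 and UW228, 1 H3K27Ac ChIP-seq library and 1 input library were used. The authors aligned reads to GRCh38/hg38, with Bowtie2 2.3.0, SAMtools 1.9 and MACS2 2.2.6 named in the submitters' processing notes, removed multi-mappers and duplicates, left out promoters, stitched the peaks and ranked them with ROSE. The deposited signal of each stitched enhancer is the read density per base pair, normalized to the library and multiplied by length. The deposited score is the ROSE rank, and other deposited columns give the SE call, the number of peaks and their summed length. Some deposited enhancers overlap a start site although promoters were to be left out. No library depth is given, so no counting error was computed.

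Input was subtracted and negative values were set to 0, and the resulting order was that of the deposited ranks in all 4 lines. Gene bodies and outermost start sites were those of RefSeq, for 27432 of 29985 curated genes with a strand in GENCODE 44. All 9 members were matched. Python 3.11.15, numpy 2.4.6, pandas 2.3.3 and matplotlib 3.10.9 were used. The gene rule, the ROSE cutoff and the motif search were tested on simulated data. Promoter sequences are from RefSeq (GRCh38.p14), although those of *SSBP4*, *LDB2* and *LMO2* were not used here, and interval sequences, given for 1 interval each of *SSBP3*, *LDB1*, *LMO1* and *LMO2*, from hg38. Those of other intervals are not reported here.

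The members and gene lists were chosen with earlier results of these data known. The genes named were the members, the genes closest to or with a start site inside their SEs, the partner genes with an SE in any line and the 3 genes most like *SSBP3*. The subtype marker genes and *RLIM*, the only ubiquitin ligase listed, were named as well. Other genes were named for the position of an enhancer, after their values were seen. Without replicates no test was made. Counts of members are given beside the share of all genes for the main rule and for division by the line's median or sum. For the other alternatives no such share was computed. Alternatives changed the input subtraction, the cutoff, the scale and the gene rule. Division by the median input within 500 kb, GENCODE gene models and all RefSeq start sites were added after the data were seen.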

Additional observations from a re-analysis of the deposited data

How the results depend on the processing

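The number of SE-associated members (2, 1, 1 and 1 in MB002, D425, HD-MB03 and UW228) changed by more than 1.5 times as follows. With the closest gene only it was 1 in MB002 and 0 in D425, HD-MB03 and UW228. With ranking by mean signal per base pair it was 0 in MB002, D425 and UW228, and in HD-MB03 it was again 1 but *SSBP4*, at rank 111, took the place of *SSBP3*. Dividing by relative input density gave 5 in MB002, 3 in HD-MB03 and 2 in D425, where 964, 379 and 998 enhancers passed the recomputed cutoff. With the median input within 500 kb it was 4, 3 and 2, where 844, 1046 and 968 enhancers passed. The deposited calls covered 363, 302 and 431, so both of these settings widened the call for all genes. The 500 top-ranked enhancers gave 3 in HD-MB03, a start site window of 100 kb gave 2 in D425 and 2 in HD-MB03, no input subtraction gave 1 in MB002, and the gene body only gave 0 in UW228. The number of members higher in all 3 G3-MB lines (2) was 1 with the closest gene only, where *SSBP3* fell in the lower group, 1 with division by relative input density and 0 per base pair. With the gene body only it was again 2, but *SSBP4* took the place of *LMO1*. The number lower (4) was 2 with division by the line's median or sum, 2 with the gene body only and 0 per base pair. The other 71 of 96 recomputed counts stayed within 1.5 times. Of the recomputed best ranks, 382 kept their SE call or lack of one, 11 lost it and 16 gained it. Of the recomputed summed signals, 166 stayed within 1.5 times and 33 did not. Genes left with no enhancer in a line are not in these tallies of ranks and signals, such as *LMO2* with the gene body only. The cause of these changes was not tested, beyond what each rule leaves out or adds. No paired analysis was possible because each line had 1 library. Depth and replicate spread are unknown, so small differences in signal cannot be told from error.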

Other observations

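Several enhancers lay just outside the 50 kb window of a member. At *LMO1* the nearest such enhancer upstream was 50.8 kb away in MB002, with a signal of 18870 at rank 902, higher than any *LMO1* enhancer inside the window, and 59.4 kb away in D425, with 7835 at rank 2458. In HD-MB03 it was 60.2 kb away with 3165 at rank 3509, and in UW228 it was 401 kb away. At *SSBP4* the nearest enhancers outside were SEs in D425 (69.4 kb upstream, 31095) and HD-MB03 (83.8 kb upstream, 39574). At *LDB2* no enhancer lay between the upstream edge of the window and 607 kb in D425 or 578 kb in HD-MB03. Just inside the window, the D425 enhancer 48.9 kb upstream of *LDB1* had a signal of 61 at rank 25717.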
